A study of Homo sapiens with 4 samples.

Results

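The somatostatin gene SST and the repressor gene BCL6 lie close together on the long arm of chromosome 3, and the stretch described here runs from 186.9 to 188 Mb of that chromosome in hg19. It holds every anchor pair with at least 1 anchor middle inside it, which is 1361 of the 720049 pairs listed in the study and 21 of its 39507 anchors. The stretch was chosen by the PET counts of a pair 360 kb apart, which is among the highest in both tables, so the level of that pair is given as a description with no test. SMC1 is a subunit of cohesin, and the assay, ChIA-PET, ligates DNA fragments held together with it so that every ligated fragment is read from its 2 ends as a paired-end tag, or PET, between 2 anchors. All libraries came from Kelly cells, a neuroblastoma line, in the form of cells that had become resistant to TAE684, an inhibitor of ALK, and were kept in 1 µM of it. Of the 4 libraries, 2 were labelled shBORIS, for short hairpin RNA against BORIS, and 2 were labelled shLUC, the control. Each was made after 24 h of infection and 48 h of puromycin selection. BORIS (CTCFL) is a relative of the insulator protein CTCF, and the comparison asks how cohesin contacts differ with shBORIS. Each group is deposited as 1 table that pools its libraries, so no value below has a replicate error and every interval covers counting error only. The labels do not say whether the libraries of a group came from separate cultures, or whether both shBORIS libraries carried the same hairpin. The cells' level of BORIS was not analysed here.

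Cohesin is known to form loops by drawing DNA through its ring until it meets CTCF bound in the right orientation, and loops bring distant enhancers near promoters or keep them apart. SST encodes somatostatin, a peptide hormone of neurons and endocrine cells that restrains the release of other hormones. BCL6 encodes a zinc finger repressor known from germinal centre B cells, where the gene is often rearranged in lymphoma, and in the mouse brain BCL6 is known to favour the turn of progenitors into neurons. In hg19 SST spans 187386694-187388187 and BCL6 spans 187439165-187463475, 51.0 kb apart, and both are read from the minus strand, so each start site is at the higher coordinate. In RefSeq's order of protein-coding genes RTP1, MASP1 and RTP4 precede SST, RTP2 lies between SST and BCL6, and LPP and TPRG1 follow BCL6. That gene table is of GRCh38.p14, so only the order of these neighbours was used and none was placed on an anchor.

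Both genes have an anchor on their start site, and sequences at those sites are shown because the contacts of these anchors are compared below. The anchor at 187387038-187388331 covers 1150 bp of SST with its start site, and the anchor at 187460906-187464089 covers 2570 bp of BCL6 with its start site. RefSeq's promoter table had an entry for each of the 2 genes, and of the 2 entries for BCL6 the one at the outer start site was used. Coordinates of these sequences are in GRCh38.p14 and the start sites of the builds need not be the same base. The first line gives the 250 bases before the SST start at chr3:187670395-187670644, with the cAMP response element TGACGTCA in capitals. The other, at chr3:187745419-187745448, gives the last 30 of 50 bases searched after the BCL6 start, with a match to BCL6's own motif in capitals. Both are on the minus strand, written 5′ to 3′.
SST promoter: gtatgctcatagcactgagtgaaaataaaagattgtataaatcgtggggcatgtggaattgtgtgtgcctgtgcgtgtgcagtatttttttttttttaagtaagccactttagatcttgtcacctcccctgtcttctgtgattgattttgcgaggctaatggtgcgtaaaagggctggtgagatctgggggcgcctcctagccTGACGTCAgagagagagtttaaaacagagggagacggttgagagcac
BCL6 site: tggtgatgcaagaagtTTCTAGGAAaggcc
Letters were searched on both strands of windows from 250 bases before to 50 after each start, and the share of 34943 such windows that hold them is given as background. TGACGTCA, the element through which cAMP signalling is known to act on the SST gene, was found 1 time in the SST window and not at BCL6, and 1.84% of windows hold it. TTCCTAGAA, a motif of BCL6 protein, which is known to repress its own gene, was found 1 time at the outer BCL6 start and not at SST, and 0.375% of windows hold it. The match is its reverse complement, TTCTAGGAA, from base 37 after the start. AGGGGGC, 1 form of the core of the CTCF motif, was found in neither, and 14.3% of windows hold it. Other forms of that core were not searched. A match is a string of letters and not a measured site. The DNA under the loop anchors described next was not read, since no hg19 genome was used here.

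The tables held 449979 PETs in shBORIS and 434975 in shLUC, of which 163041 and 146140 joined anchors of the same chromosome. The 1361 pairs of the stretch carried 816 PETs in shBORIS and 842 in shLUC. Most of them, 1175 pairs with 578 PETs in shBORIS and 602 in shLUC, led to other chromosomes, and 1170 of these were seen once. Within chromosome 3 there were 186 pairs with 238 PETs in shBORIS and 240 in shLUC, which is 29.2% of the stretch's PETs in shBORIS (exact 95% interval 26.1 to 32.4) and 28.5% in shLUC (25.5 to 31.7). Over the whole tables these shares were 36.2% and 33.6%. Of the 186 pairs, 45 had both anchors inside the stretch, with 137 PETs in shBORIS and 141 in shLUC. Only 8 pairs reached the 10 PETs, summed over the tables, that the test of single pairs required.

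The 360 kb loop joined the anchor at 187035905-187038784 to the anchor at 187395885-187398680 with 49 PETs in shBORIS and 56 in shLUC. Its upper end lay 7.70 kb before the SST start site and 40.5 kb below the 3′ end of BCL6, so the loop ended near SST, touched neither gene, and did not join SST to BCL6. By PETs summed over the tables it ranked 5 among 147452 intrachromosomal pairs. Among 76723 pairs at least 200 kb apart it ranked 1 in shBORIS and 1 in shLUC, with 105 PETs in all against 75 for the next pair. For pairs of 300 to 420 kb the median was 1 PET, and 68.7% of 8885 such pairs were seen once. The authors' deposited tables give it a Bayes probability of 1 in each group.

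**Figure D1:**
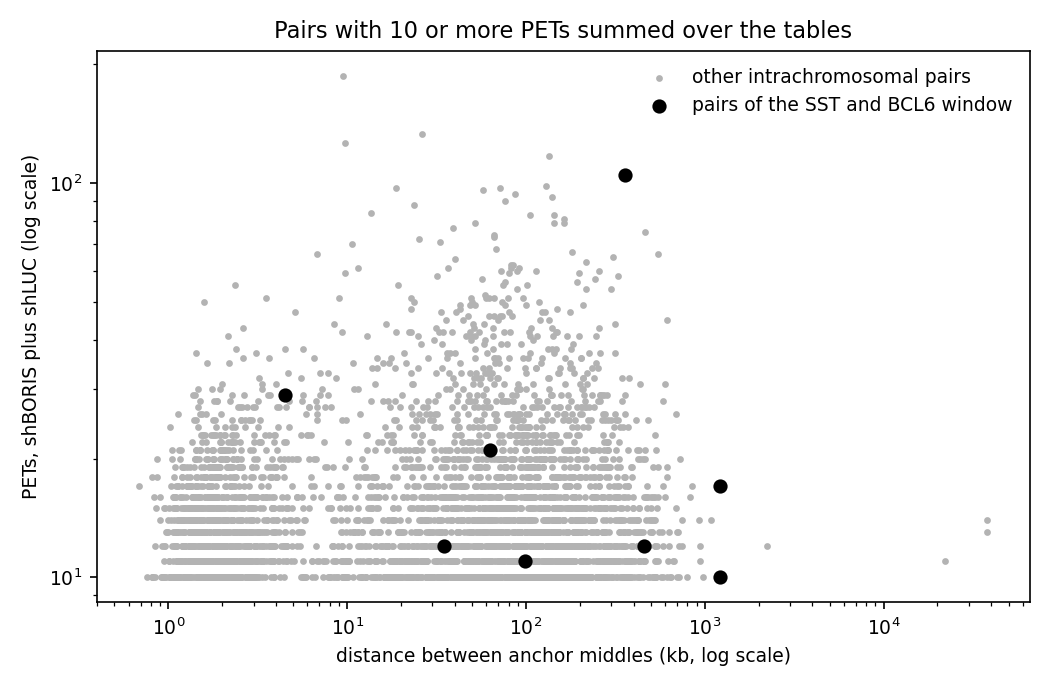
PETs summed over both tables (log scale) against the distance between anchor middles (kb, log scale) for every intrachromosomal pair with at least 10 PETs. Each grey point is a pair elsewhere in the genome and each black point one of the 8 pairs of the SST and BCL6 stretch. The loop, at 105 PETs, stands above all other pairs of at least 200 kb, and 2 pairs of BCL6 lie beyond 1 Mb with 17 and 10 PETs.

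Between the groups the loop's scaled ratio, shBORIS over shLUC after division by each table's intrachromosomal PETs, was 0.784 (exact 95% interval 0.523 to 1.17). It did not pass the test (two-sided Fisher's exact test, adjusted p = 0.962 over 3951 pairs). Over all tested pairs 0.0506% were called, and 0 of the 8 pairs of the stretch were, and none of the 8 had p under 0.05 before adjustment. A test that assumes a negative binomial dispersion of 0.1 called 0 of all 3951 pairs, so its 0 for the stretch adds nothing. The test compares 2 pools of reads and not the conditions.

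The loop took most of the same-chromosome PETs counted at each of its ends. The pair was chosen for its high counts, so these shares are a description and follow in part from that choice. At the far end the loop took 49 of 75 intrachromosomal PETs in shBORIS, or 65.3% (53.5 to 76.0), and 56 of 83 in shLUC, or 67.5% (56.3 to 77.4). At the end near SST it took 49 of 88 in shBORIS, or 55.7% (44.7 to 66.3), and 56 of 91 in shLUC, or 61.5% (50.8 to 71.6). Neither difference between the tables passed (Fisher's exact test, p = 0.866 at the far end and p = 0.451 near SST). Within 2 Mb the far end had 66 PETs towards SST and 6 away from it in shBORIS, and 67 and 8 in shLUC. The end near SST had 71 PETs towards the far end and 10 towards BCL6 in shBORIS, and 80 and 5 in shLUC. Without the loop pair itself, the far end had 17 PETs towards SST and 6 away from it in shBORIS, and 11 and 8 in shLUC. The end near SST then had 22 towards the far end and 10 towards BCL6 in shBORIS, and 24 and 5 in shLUC.

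**Figure D2:**
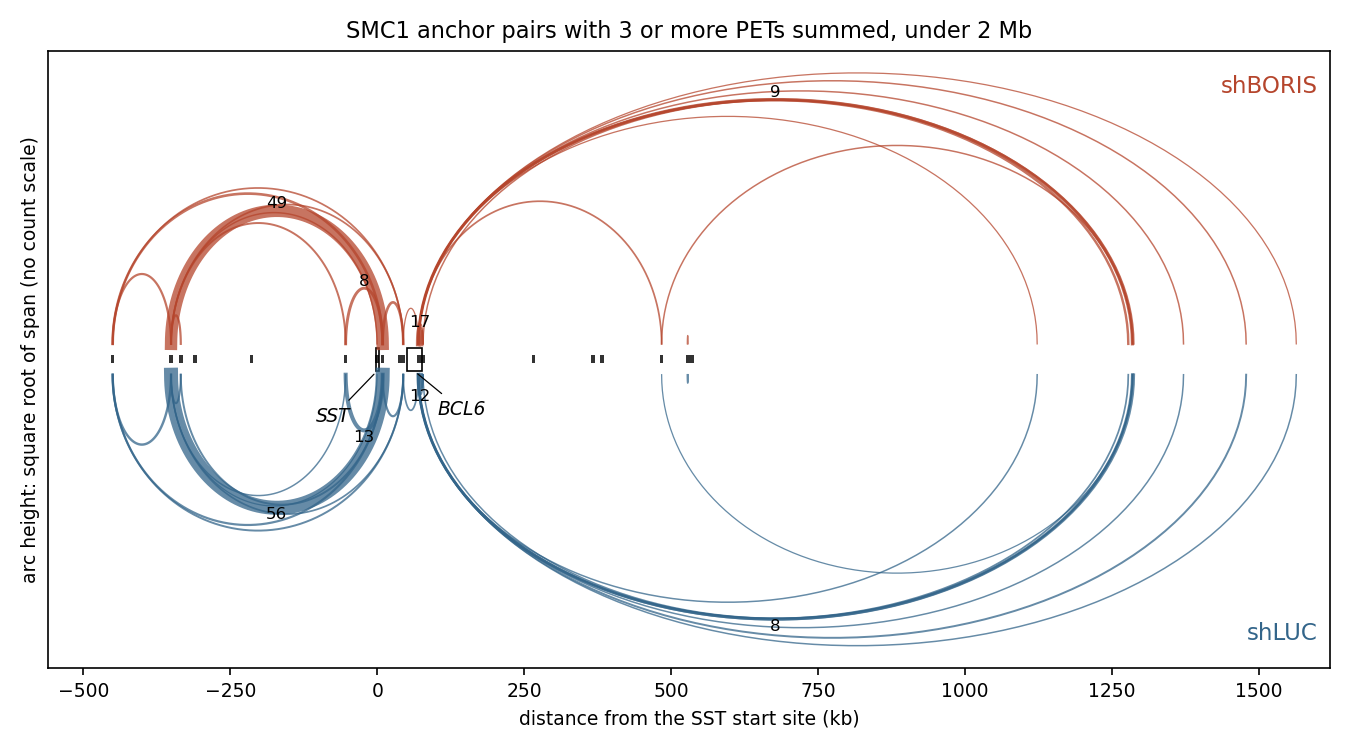
Anchor pairs with at least 3 PETs summed and under 2 Mb, by distance from the SST start site in kb, with shBORIS above and shLUC below. Arcs join anchor middles, line width grows with the PET count, numbers give counts of 8 or more, black marks are the 21 anchors and open boxes the 2 genes. The 360 kb loop (49 PETs in shBORIS, 56 in shLUC) ends beside SST, while the longest arcs of BCL6 run the other way, to anchors more than 1 Mb away.

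Anchors joined to the loop ends lay on both sides of each end. Besides the ends themselves, 4 anchors were picked for being joined to an end by an interaction called in both tables, a call being a pair that holds 3 PETs or more at a Bayes probability of 0.9 or more. They lay at 186937363-186938782, 187052554-187055194, 187333662-187334958 and 187431417-187433159. Among these 6 anchors 11 of 15 possible pairs were listed, with 91 PETs in shBORIS and 103 in shLUC, and 8 were called in both tables. Of these 8, 7 held a loop end and follow from how the anchors were picked. Among the 4 picked anchors alone, 2 of 6 possible pairs were listed and 1 was called in both. The end near SST met 187333662-187334958, inside the loop, with 8 PETs in shBORIS and 13 in shLUC, a scaled ratio of 0.552 (0.198 to 1.44). It met 186937363-186938782, outside the far end, with 7 PETs in shBORIS and 5 in shLUC across 459 kb. It also met 187431417-187433159, between SST and BCL6, with 7 PETs in shBORIS and 5 in shLUC. The outermost of these anchors, 494 kb apart, shared 3 PETs in shBORIS and 4 in shLUC. None of the intervals of these pairs left out 1.

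Few PETs were seen at the SST start site itself. Its anchor carried 4 intrachromosomal PETs in shBORIS and 3 in shLUC, below the 10 summed PETs needed for a test, and 9 and 10 interchromosomal ones. With the far end of the loop, 350 kb away, it shared 2 PETs in shBORIS and 1 in shLUC. With the near end, 9.60 kb away, it shared 1 PET in each table. Thus 3 of its 4 intrachromosomal PETs in shBORIS and 2 of 3 in shLUC joined a loop end. The SST anchor had 0 PETs with the BCL6 anchors in either table, but totals of 4 and 3 PETs are too few for a count of 0 to limit its share. From the side of BCL6 the limit was taken as 3 counts of the total. The same count of 0 then allows up to 4.41% of the intrachromosomal PETs of the anchor inside the gene in shBORIS and 5.36% in shLUC. For its start site anchor it allows up to 11.1% and 15.8%.

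BCL6 was covered by a pair of anchors, one on its start site and one inside the gene at 187455329-187460714. The anchor inside the gene was the widest of the stretch, 5386 bp against a median of 1294 bp for the 21 anchors. It carried 68 intrachromosomal PETs in shBORIS and 56 in shLUC, a scaled ratio of 1.09 (0.753 to 1.58). The start site anchor carried 27 in shBORIS and 19 in shLUC, at a ratio of 1.27 (0.682 to 2.42). The anchors of BCL6 met each other, 4.48 kb apart, with 17 PETs in shBORIS and 12 in shLUC, the second highest count of the stretch, at a ratio of 1.27 (0.572 to 2.91).

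Most contacts of the anchor inside BCL6 within 2 Mb ran away from SST, and many of them spanned more than 1 Mb. Within 2 Mb it had 52 PETs towards higher coordinates and 3 towards SST in shBORIS, and 46 and 3 in shLUC. The PETs towards higher coordinates include the 17 in shBORIS and 12 in shLUC with the BCL6 start site anchor, 4.48 kb away. Of the 8 anchors that lie 1 to 1.5 Mb above it, it met 8 in shBORIS and 7 in shLUC, with 26 and 28 PETs, or 38.2% and 50% of its intrachromosomal PETs. The strongest of these joined it to 188671682-188673241, 1214 kb away, with 9 PETs in shBORIS and 8 in shLUC, a scaled ratio of 1.01 (0.345 to 3.004). Among 2856 pairs of 1 to 1.5 Mb in the study this pair had the most PETs, 17 in all, where the next had 14 and 85.3% were seen once. In shBORIS alone it was first, and in shLUC it shared the first place with 1 other pair. The neighbouring anchors at 188664584-188666467 and 188674185-188675518 were joined to BCL6 with 6 and 3 PETs in shBORIS and with 3 and 7 PETs in shLUC. For the last of these the interval of the ratio, 0.384, ran from 0.0641 to 1.68 (adjusted p = 0.962 by Fisher's exact test). All 3 were called in both tables.

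The loop ends and the anchors picked with them shared few PETs with BCL6 and with those far anchors. With those far anchors alone, the far end of the loop had 0 PETs in either table. This allows up to 4% of its intrachromosomal PETs in shBORIS and 3.61% in shLUC. The near end had 1 PET with them in shBORIS and 0 in shLUC. The anchor at 186937363-186938782 had 2 PETs with the far anchors in shBORIS, or 10.5% of its intrachromosomal PETs, and 0 in shLUC. The anchor at 187431417-187433159 had 0 in shBORIS and 1 in shLUC. Between the loop ends and the 2 BCL6 anchors there were 2 PETs in shBORIS and 0 in shLUC over 4 possible pairs. With the 4 picked anchors added there were 3 PETs in each table over 12 possible pairs, and 1 of these pairs, 187431417-187433159 with the anchor inside BCL6, was called in shLUC, where it had 3 PETs, against 1 in shBORIS. The 5 anchors between the loop ends shared 0 PETs with the BCL6 anchors in either table. Counting pairs with both anchors in the stretch, the gap from 187388332 to 187395884, under the loop, was crossed by 74 PETs in shBORIS and 86 in shLUC, or by 25 and 30 without the loop pair. The gap from 187433160 to 187455328, which reaches into the 3′ part of BCL6, was crossed by 4 in shBORIS and 3 in shLUC. Next to it, the gap between the 2 BCL6 anchors was crossed by 27 and 16. Of the gaps between SST and the anchor inside BCL6 it was crossed by the fewest PETs in both tables, and it was noted after the counts were seen.

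**Figure D3:**
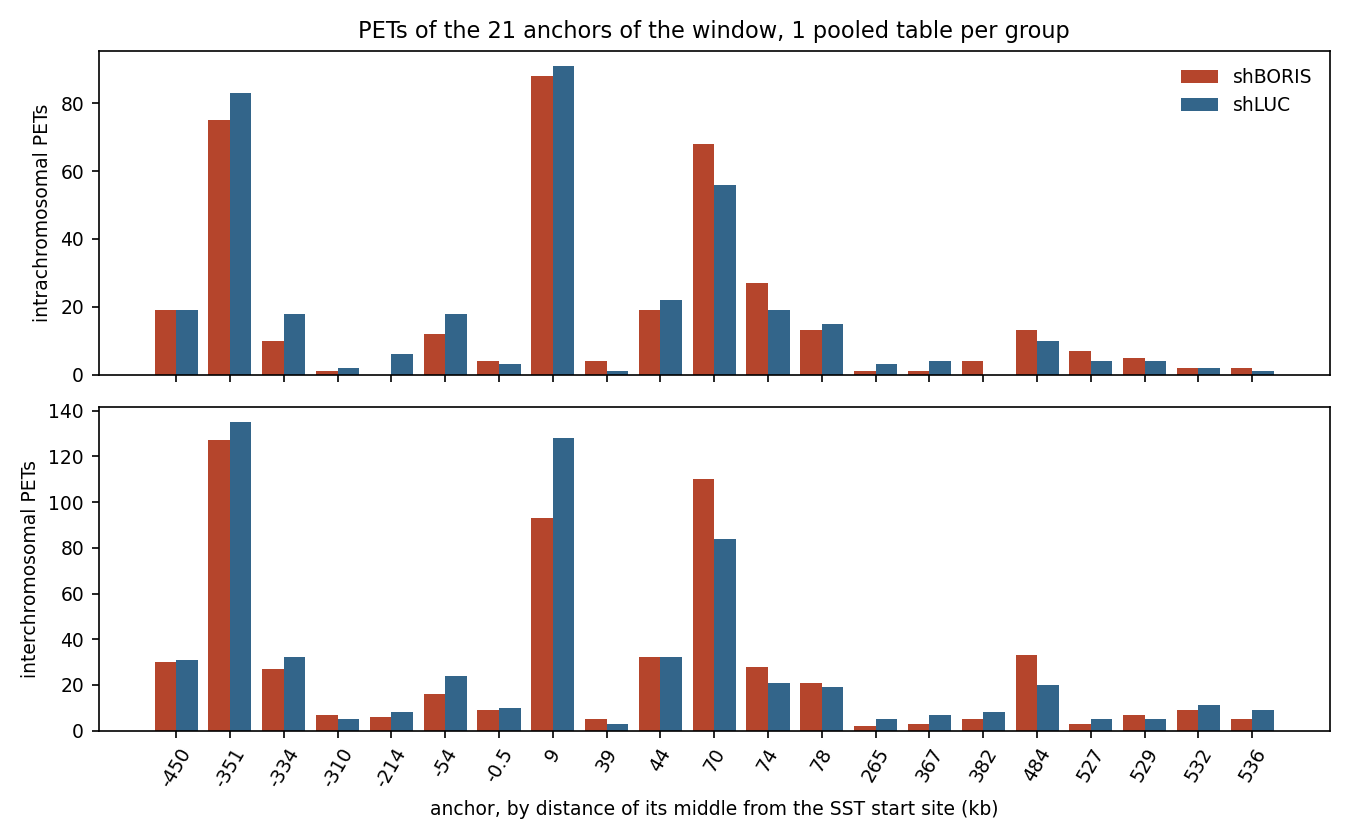
PETs of each of the 21 anchors, intrachromosomal above and interchromosomal below, in shBORIS (left bar) and shLUC (right bar), ordered by the distance of the anchor's middle from the SST start site in kb. The loop ends at -351 and 9 kb and the anchor inside BCL6 at 70 kb have the highest bars of both kinds, and the SST start site anchor at -0.5 kb has 4 and 3 intrachromosomal PETs.

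Summed per anchor, 11 of the 21 anchors had enough intrachromosomal PETs to be tested and 0 passed (Fisher's exact test over 19623 anchors, of which 0.0204% were called), and none of the 11 had p under 0.05 before adjustment. The lowest ratio among them was at 187052554-187055194, just inside the far end of the loop, with 10 PETs in shBORIS and 18 in shLUC, at a ratio of 0.498 (0.205 to 1.14, adjusted p = 0.840 in Fisher's exact test). Its contact with the end near SST had 0 PETs in shBORIS and 4 in shLUC. The loop ends had ratios of 0.810 (0.585 to 1.12) at the far end and 0.867 (0.639 to 1.17) near SST. Over the 21 anchors the scaled count was higher in shBORIS at 9 and lower at 12. Of the 21 anchors, 2 had intrachromosomal PETs in 1 table alone, which is 9.52%, against 10.3% of the 38788 anchors with such PETs in the study. That share includes anchors with fewer PETs than either of the 2. Among anchors with at least 4 such PETs summed, it was 2 of 19 in the stretch, or 10.5%. In the study it was 718 of 32641, a smaller share, and the difference was not tested. The 2 anchors were 187173394-187174671 with 0 in shBORIS and 6 in shLUC, and 187769998-187770709 with 4 in shBORIS and 0 in shLUC. Both had fewer than 10 PETs and were not tested, and the interval of the ratio of the first ran from 0 to 0.761 and left out 1.

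Interchromosomal PETs of the same anchors are given beside these counts. At the end of the loop near SST they numbered 93 in shBORIS and 128 in shLUC, at a ratio of 0.731 (0.554 to 0.963), and at the far end 127 and 135, a ratio of 0.947 (0.737 to 1.22). In the anchor inside BCL6 there were 110 in shBORIS and 84 in shLUC, at a ratio of 1.32 (0.983 to 1.77). Of 18 anchors of the stretch tested for these PETs, 0 passed (Fisher's exact test over 35637 anchors, of which 0.014% were called), with an adjusted p of 0.784 near SST and 0.879 inside BCL6, and 1 of the 18, or 5.56%, had p under 0.05 before adjustment, as did 1981 of all 35637, which is also 5.56%. The part of these counts in the ratios above was not tested.

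**Figure D4:**
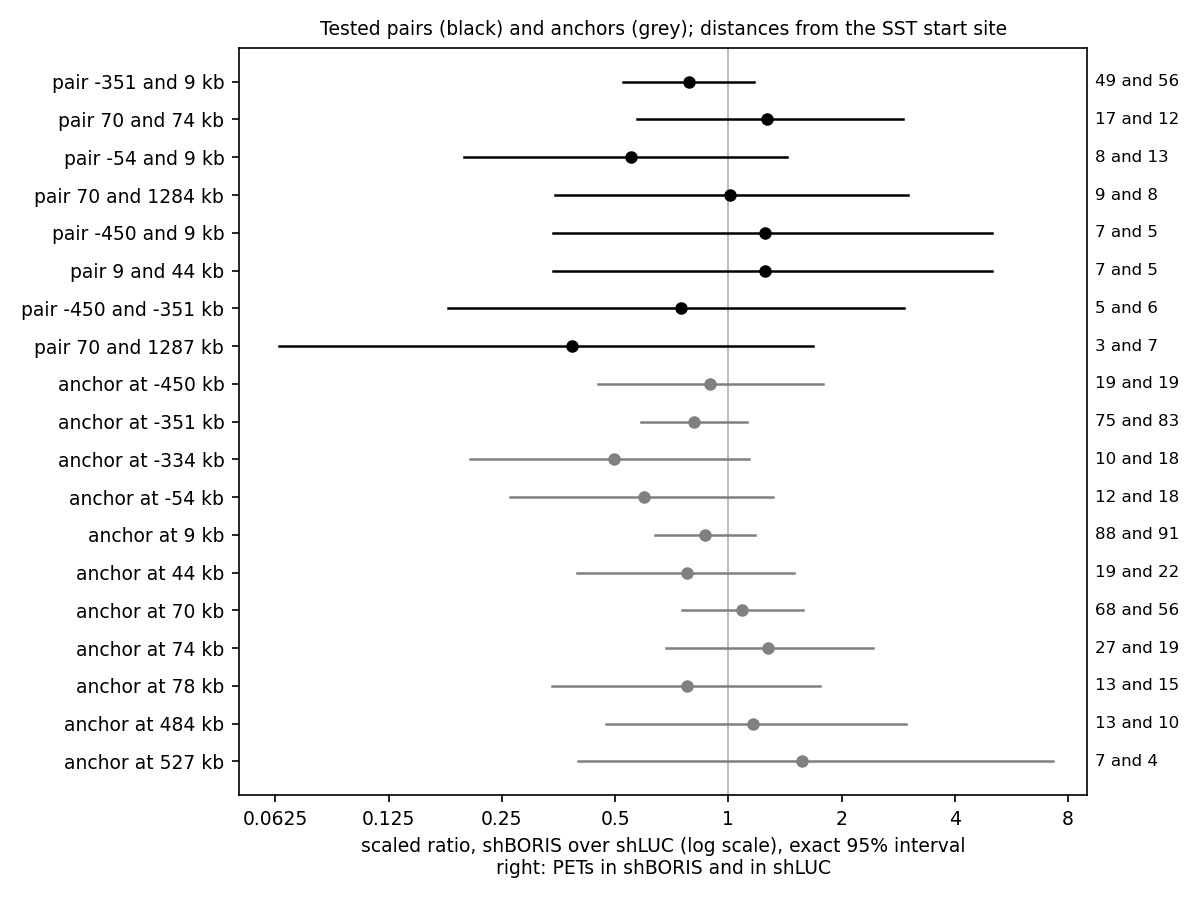
Scaled ratio of shBORIS over shLUC (log scale) with its exact 95% interval for the 8 tested pairs (black) and the 11 tested anchors (grey), named by distance from the SST start site in kb. PETs in shBORIS and in shLUC stand at the right, and every interval includes 1.

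Taking all pairs of the stretch under 2 Mb, 188 PETs in shBORIS and 196 in shLUC gave a scaled ratio of 0.860 (0.7001 to 1.06), and without the loop pair 139 and 140 PETs gave 0.890 (0.699 to 1.13). Long contacts made up most of them. PETs of at least 100 kb were 135 of 188 in shBORIS, or 71.8%, and 142 of 196 in shLUC, or 72.4%, while over the whole tables they were 44.2% and 46.0% of PETs under 2 Mb. Without the loop pair the stretch still had 61.9% in shBORIS and 61.4% in shLUC. The odds of a long contact in the stretch had a ratio of 0.969, shBORIS over shLUC, and did not pass (Fisher's exact test, p = 0.910), and over all pairs the odds ratio was 0.928.

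As called interactions the stretch had 12 in both tables, 3 in shBORIS alone and 3 in shLUC alone. That is 8.06% of its 186 pairs in each table, against 8.89% of all intrachromosomal pairs in shBORIS and 7.62% in shLUC. The 12 were 6.45% of the pairs, against 4.27% called in both over all intrachromosomal pairs. Of the shBORIS calls 80% were also called in shLUC, against 48.0% of all shBORIS calls, and of the shLUC calls 80% were also called in shBORIS, against 56.0% of all shLUC calls. The loop pair by which the stretch was chosen is among the 12, so these shares follow in part from that choice. They were not tested. The 6 called in 1 table alone had 3 or 4 PETs there and 0 to 2 in the other. In shBORIS alone these were the far end of the loop with 187333662-187334958 (4 PETs in shBORIS, 2 in shLUC), the BCL6 start site anchor with its neighbour at 187465350-187466707 (3 and 2), and the anchor inside BCL6 with 187870574-187872965 (3 and 0). In shLUC alone they were the end near SST with 187052554-187055194 (0 PETs in shBORIS, 4 in shLUC), the anchor inside BCL6 with 187431417-187433159 (1 and 3) and the same anchor with 188865227-188866763 (2 and 4).

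Beside other strong long loops the ratio of this one lay within their range. Leaving it out, 41 pairs of 300 kb to 2 Mb had at least 20 PETs summed, with 663 PETs in shBORIS and 546 in shLUC and a pooled ratio of 1.09 (0.970 to 1.22). Their median ratio was 1.08, and 8 of the 41, or 19.5%, were below the loop's 0.784. The loop had 105 PETs summed and none of the 41 had more than 75, so counting error spreads their ratios more widely. The 5 of these 41 with the most PETs had ratios on both sides of 1, and each interval included 1. On chromosome 17 a pair across 464 kb had 44 PETs in shBORIS and 31 in shLUC, at a ratio of 1.27 (0.785 to 2.08). On chromosome 1 a pair across 549 kb had 39 in shBORIS and 27 in shLUC, at a ratio of 1.29 (0.773 to 2.199). The pairs on chromosomes 7, 9 and 20 had 39, 27 and 25 PETs in shBORIS and 26, 31 and 20 in shLUC, with ratios of 1.34 (0.798 to 2.3003), 0.781 (0.448 to 1.35) and 1.12 (0.597 to 2.13).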

How the data were processed

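SMC1 ChIA-PET was measured in 2 shBORIS and 2 shLUC libraries of Kelly cells. The authors deposited 1 table per group, named by both of its libraries, and it was read as their pool. PET counts per anchor pair are whole numbers and unnormalized in the deposited tables. The hypergeometric p-value and the Bayes probability, a fraction from 0 to 1, are the authors' own per the file headers. The shBORIS table lacks a header, and its 9 columns were taken to be those of the shLUC table. Cutadapt 1.8, Bowtie and hg19 are named per the submitters' processing notes, and the interaction caller is not given in the sources used here. Starts were shifted to count from 1. Gene ends in hg19 came with the definition of the stretch, and RefSeq sequences are of GRCh38.p14.

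Where a pair or an anchor had 10 PETs or more over both tables, it was compared by two-sided Fisher's exact test against the remaining intrachromosomal PETs, with Benjamini-Hochberg adjustment over the whole table and a threshold of 0.05. Intervals are exact 95% Clopper-Pearson intervals. PCR copies could not be told from separate molecules, so these and the limit of 3 counts for a count of 0 cover counting error alone. Python 3.11.15 and scipy 1.17.1 were used, and the tests were tried on simulated data. Members, named anchors and tests were chosen with earlier results of these data known. Pairs with at least 10 PETs, anchors of the loop, of the genes and next to them, and the 5 anchors with the most PETs were to be named. Pairs and anchors named outside that rule, the far contacts of BCL6, the border, the interchromosomal test and the other long loops were chosen after their values were seen. Alternatives varied scaling, filter, dispersion, window, call minimum, span split and the pairs counted.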

Additional observations from a re-analysis of the deposited data

How the results depend on the processing

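Of 41 alternatives over 12 results, all planned, 32 kept the direction and side of the threshold, stayed within 1.5 times the count or stayed inside the counting interval. The loop's ratio ranged from 0.771 when scaled to PETs under 2 Mb to 0.846 when scaled to all PETs, and no tested pair of the stretch passed under any scaling, filter, dispersion or window tried, and no tested anchor under any scaling or filter tried. Calls with at least 5 PETs were 7 in both tables, 2 in shBORIS alone and 1 in shLUC alone. Those in both tables are fewer by construction of the higher minimum. The pair then called in shLUC alone, the anchor inside BCL6 with 188674185-188675518, was called in both tables at the lower minimum. The odds ratio of long contacts turned to 1.12 with a split at 200 kb (Fisher's exact test, p = 0.656) and to 1.02 without the loop pair (p = 1, Fisher's exact test), so its direction is not fixed. With interchromosomal PETs in the total the loop took 24.3% of the far end's PETs in shBORIS and 25.7% in shLUC, and 27.1% and 25.6% near SST, lower because the total grows. Pairs with at least 2 PETs alone gave 77.8% at the far end in shLUC. No paired analysis was possible because the counts are not split by library, which also means that no replicate block and no fit without a replicate could be made. Most pairs hold 1 PET, and the widths of the intervals show how little a single pair can tell at this depth.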

Other observations

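Of the 1175 pairs between this stretch and other chromosomes, 5 had more than 1 PET in all, and none had more than 2. The end of the loop near SST had 4 of them. Its partners at 205679685-205681274 on chromosome 1 and 22671910-22673063 on chromosome 20 had 1 PET in shBORIS and 1 in shLUC each. Its partner at 112552864-112554497 on chromosome 5 had 2 PETs in shBORIS and 0 in shLUC, and that at 209421218-209423719 on chromosome 1 had 0 in shBORIS and 2 in shLUC. The anchor inside BCL6 had 2 PETs in shBORIS and 0 in shLUC with 58715685-58716907 on chromosome 17.

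The anchor at 187870574-187872965, above BCL6, also reached the far anchors that BCL6 met, with 4 PETs in shBORIS and 3 in shLUC, out of 13 and 10 intrachromosomal PETs. The anchor 1.88 kb before the BCL6 start had 2 PETs in shBORIS and 5 in shLUC with them. The BCL6 start site anchor had 1 in shBORIS and 2 in shLUC.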
